A study of Mus musculus with 2 samples.

Results

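The fibroblast growth factor (FGF) ligands and the receptor tyrosine kinases were followed across the luminal layer of the mouse mammary gland, in luminal cells with high and with low activity of the Tbx3 promoter. The set was defined by gene name and holds the FGF, PDGF and VEGF ligands, Kitl, Hgf, Igf1 and Igf2, the receptors of these families, the receptors of the insulin, neurotrophin, TAM, DDR, TIE, RET, MUSK, ALK, LTK and ROS families, and the cytoplasmic kinase gene Csk. Of 67 genes that the names cover, 48 are represented in the value table by a probe set annotated to them alone, among 13869 genes in all. The other 19, among them Fgfr1, Fgfrl1, Met, Kit, Kitl, Flt3, Pdgfa, Pdgfc, Pdgfra, Vegfb, Vegfc, Igf1, Igf1r, Axl, Mertk and Csk, are not analysed here. The name rule uses no measured value, but the set was chosen with earlier results of these data known.

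FGF ligands are heparin-binding growth factors that signal through receptor tyrosine kinases with the help of heparan sulfate proteoglycans. A dimerized receptor phosphorylates itself and docks adaptors that start the RAS-ERK and PI3K-AKT cascades. In the mammary gland, FGF ligands of the stroma act on epithelial Fgfr2 during placode formation and ductal branching, and the vascular, neurotrophin and mesenchymal receptors of the same superfamily are known from other cell types.

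Both populations came from 1 pool of mammary epithelial cells of 3 adult virgin female mice on the FVB background, 5 months of age. The mice were heterozygous knock-ins, Tbx3+/Venus, in which the Venus fluorescent protein had been placed at the start codon of 1 Tbx3 allele, so cells of both populations lack expression of Tbx3 from that allele. After dead cells, CD45+ cells and stromal cells had been gated out, 200000 luminal cells (gated on CD24 and CD49f) with high Venus (Venus High) and 200000 with low or no Venus (Venus Low) were sorted, and each population was hybridized to 1 Affymetrix mouse genome GeneChip. No replicates exist, so no difference below has a test or a replicate error, and the number of arrays limits the precision. RNA from bulk cells does not separate more RNA per cell from a larger share of expressing cells.

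Values are array signals on the log2 scale with a floor at a signal of 10, which equals 3.32 on that scale. Of the 29338 probe sets in the table, 12968 gave a higher value in Venus High cells, 16370 were at the floor in both populations and 0 were lower in Venus High cells. In this table every difference is therefore 0 or above, a gene or probe set that was lower in Venus High cells cannot appear, and a gene may be represented by a dimmer probe set than its brightest. Median centring would lower a difference by 0.66, or by less where a value stops at the floor, so a smaller difference has no settled direction. Where a gene had several probe sets, the one with the highest mean log2 signal was used. Probe sets of the same gene that reached a signal of 100 differed in their log2 difference with a pooled SD of 0.31 over 1062 genes, a spread within these arrays and not between animals, and one that leaves out disagreements in sign.

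Marker genes were read beside the sort. A marker probe set lower in Venus High cells cannot appear, so they cannot show other cell types that are more frequent in Venus Low cells. Hormone-sensing markers could likewise only differ by 0 or above. Of 9 pan-luminal genes 4 were represented, with log2 signals of 8.91 or more on both arrays, and Krt8 reached 13.22 and 13.13. Of 8 hormone-sensing genes 6 were in the table, and their log2 differences ran from 2.98 (Esr1) to 7.95 (Cited1). The sorted gene Tbx3 had 8.72 and 3.62. None of 7 alveolar progenitor genes is analysed here. The basal (6 of 8), leukocyte (5 of 7), adipocyte (3 of 4), mast cell (4 of 4) and glial (2 of 4) marker genes in the table were at the floor in both populations on every probe set used. Krt14, Acta2, Ptprc and Cpa3 were among them. Of 4 pericyte markers 3 were represented, with 0 at a signal of 100 or more and summed linear signals of 39.4 and 33.1. Fibroblast and endothelial markers, of which Dcn and Eng had signal, are given below.

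Most of the set lay at or near the floor in both luminal populations on the probe sets in the table. Of the 48 genes, 34 (70.8%) were at the floor in both populations, against 48.2% of all genes in the table, and 5 (10.4%) came to a signal of 100 or more on either array, against 27.7% of all genes. Those 5 were Fgfr2, Fgf13, Vegfa, Ddr1 and Insr. A gene was counted when it was up by 4-fold or more in Venus High cells at a signal of 100 or more, which held for 2 of the 48 genes, Fgfr2 and Fgf13, a share of 4.17% where 2.38% of all genes in the table met the same rule. At least 2-fold higher were 3 of the 48 (6.25%), with Vegfa as the third, against a background of 5.99%. Among only the genes that reached a signal of 100, the background was 8.58% at 4-fold and 21.6% at 2-fold, where the set had 2 and 3 of its 5 genes, but Fgf13 and Vegfa passed that minimum only through Venus High cells and so had to differ. The fold counts rest on 2 and 3 genes and are read as no result about the set as a whole.

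**Figure D1:**
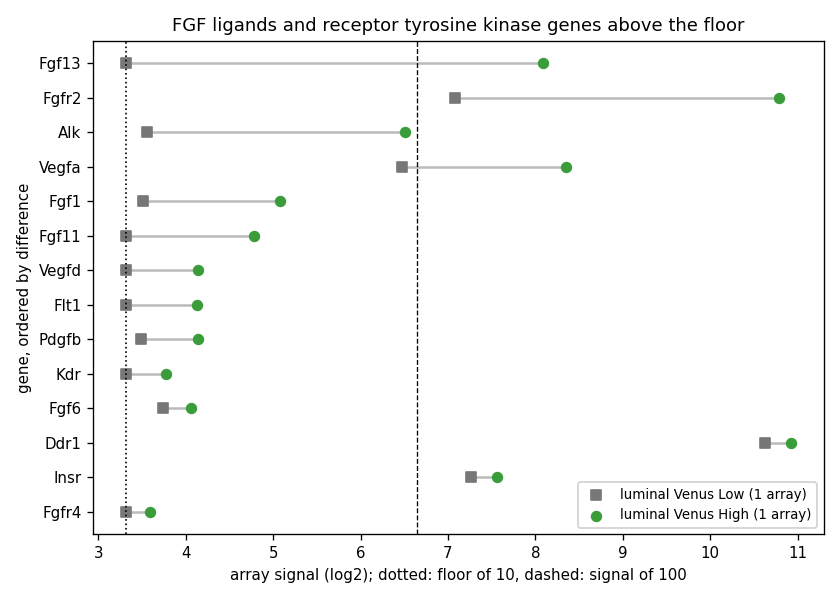
Array signal (log2, horizontal axis) of the 14 genes of the set that lay above the floor on either array, where green circles are luminal Venus High and grey squares luminal Venus Low cells, with 1 array each. Fgfr2 has a gap of 3.70 with both values above the dashed line at a signal of 100, the gap of Fgf13 (4.77) is taken against a value at the floor, the signals of Ddr1 and Insr nearly coincide, and Alk stops just short of the dashed line.

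The receptor Fgfr2, whose epithelial splice form binds FGF7 and FGF10, had a log2 signal of 10.78 in Venus High against 7.08 in Venus Low cells on its brightest probe set, whose name ends in _s_at. On the linear scale these are signals of 1761 and 136, a log2 difference of 3.70. The probe set ending in _a_at gave 9.74 and 5.31, and the plain probe set, with neither ending, gave 6.40 in Venus High cells and the floor in Venus Low cells. As deposited, all 3 probe sets of Fgfr2 were thus higher in Venus High cells, by 3.70, 4.44 and at least 3.08 on the log2 scale. That range is wider than the SD of 0.31 between probe sets. A lower probe set cannot appear in the table, so the shared direction is no separate evidence and only the sizes can be compared. The signal in Venus Low cells was above 100 on the brightest probe set, so the transcript was measured in both populations there. Its log2 difference of 3.70 exceeded that of 96.9% of the 3847 genes that reached a signal of 100. The endings _s_at and _a_at mark probe sets that can match several transcripts, and on the plain probe set alone Fgfr2 stays under a signal of 100 and leaves the 4-fold count.

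The other FGF receptor genes in the table were near or at the floor. Fgfr4 had 3.59 in Venus High cells and the floor in Venus Low cells on its brightest of 5 probe sets, a signal of 12.0, and Fgfr3 was at the floor in both populations on its 1 probe set in the table. These values set no order between the receptors, since signals of different probe sets are not on 1 scale.

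All 22 FGF ligand genes were represented. Of the 18 secreted ligands, 16 were at the floor in both populations on every probe set in the table, among them Fgf2, Fgf7 and Fgf10, the ligands best known from mammary stroma, and Fgf3, Fgf4, Fgf8 and Fgf9. The remaining secreted ligands were Fgf1, which had 5.08 in Venus High against 3.51 in Venus Low cells, and Fgf6, which had 4.06 and 3.74. A second Fgf1 probe set gave 4.74 and 3.47, and another was at the floor in both populations. No secreted FGF ligand reached a signal of 100 in either population. With a floor of 32 the difference of Fgf1 shrinks from 1.57 to 0.08 and that of Fgf6 to 0.

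The 4 FGF homologous factors, Fgf11 to Fgf14, stay inside the cell, do not act as ligands of the FGF receptors, and are known as partners of voltage-gated sodium channels and of microtubules. Fgf13 had a log2 signal of 8.09 (273 on the linear scale) in Venus High cells and was at the floor in Venus Low cells on 1 probe set. As deposited it was at least 27.3-fold higher there, and its log2 difference is 4.11 after median centring. Its other probe set lay at the floor in both populations, so the 2 probe sets of Fgf13 disagreed. With a floor of 100 its log2 difference falls from 4.77 to 1.45, under 4-fold. Fgf11 had 4.78 in Venus High cells and the floor in Venus Low cells, and Fgf12 (3 probe sets) and Fgf14 (4 probe sets) were at the floor throughout.

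**Figure D2:**
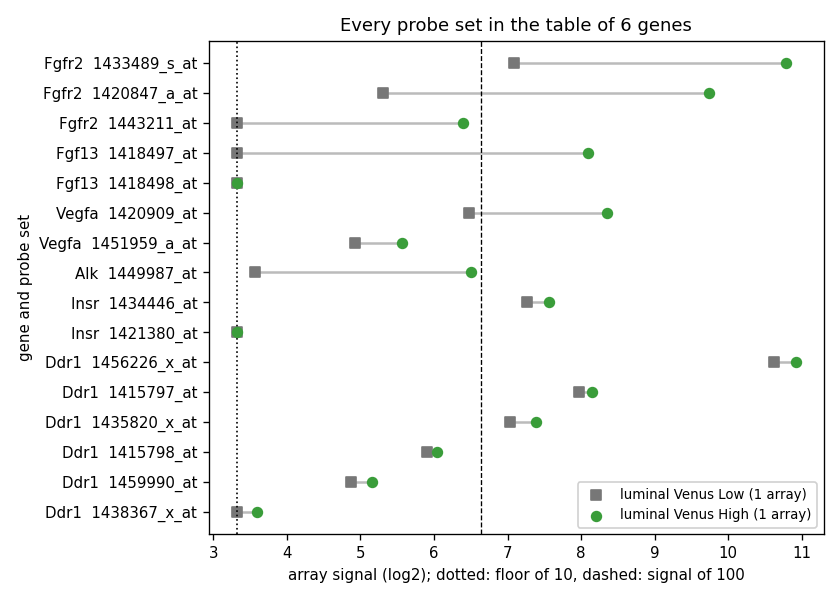
Array signal (log2, horizontal axis) of each probe set in the table for 6 genes, where green circles are luminal Venus High and grey squares luminal Venus Low cells, with 1 array each. All 3 Fgfr2 probe sets are higher in Venus High cells, the only direction that the table can hold. The Fgf13 probe sets disagree, and the 6 Ddr1 probe sets span the signal range with small gaps.

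The promoters of Fgfr2, Fgf13 and Alk, the members at least 4-fold higher with a signal minimum of 50, are shown so that their sequence can be set beside the values. Each is the run of 250 bases just before a transcription start, taken from RefSeq on GRCm38.p6 and read 5′ to 3′ on the gene's own strand, with CpG dinucleotides in capitals. RefSeq windows were matched for 11 of the 14 genes above the floor, all but Fgf1, Pdgfb and Insr. The Fgfr2 window lies at chr7:130266809-130267058 on the minus strand, the shown Fgf13 windows are its most upstream start, at chrX:59585573-59585822, and its next start, at chrX:59567349-59567598, both on the minus strand, and the Alk window lies at chr17:72604308-72604557 on the minus strand.

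Fgfr2: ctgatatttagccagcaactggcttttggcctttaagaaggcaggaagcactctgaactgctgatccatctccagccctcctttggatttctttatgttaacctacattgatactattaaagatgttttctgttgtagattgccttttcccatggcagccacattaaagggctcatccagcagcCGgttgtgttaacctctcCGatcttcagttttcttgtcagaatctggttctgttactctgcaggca
Fgf13 upstream start: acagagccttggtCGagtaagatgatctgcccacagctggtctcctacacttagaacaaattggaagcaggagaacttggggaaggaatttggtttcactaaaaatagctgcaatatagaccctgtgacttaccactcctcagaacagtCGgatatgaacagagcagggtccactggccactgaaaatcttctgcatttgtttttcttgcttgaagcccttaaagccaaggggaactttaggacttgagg
Fgf13 next start: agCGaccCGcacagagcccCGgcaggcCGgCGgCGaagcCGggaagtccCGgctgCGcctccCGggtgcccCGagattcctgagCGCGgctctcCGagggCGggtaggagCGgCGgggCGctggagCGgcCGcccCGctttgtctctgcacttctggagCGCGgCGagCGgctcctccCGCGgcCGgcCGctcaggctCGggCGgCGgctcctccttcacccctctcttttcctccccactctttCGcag
Alk: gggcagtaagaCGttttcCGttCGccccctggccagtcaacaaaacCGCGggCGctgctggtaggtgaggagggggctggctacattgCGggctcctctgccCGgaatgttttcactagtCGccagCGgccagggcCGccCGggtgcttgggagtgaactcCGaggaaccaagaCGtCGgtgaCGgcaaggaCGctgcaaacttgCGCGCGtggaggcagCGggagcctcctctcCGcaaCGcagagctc

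The windows differed widely in CpG content. The Fgfr2 window held 2 CpG dinucleotides, where the median of 32851 RefSeq windows of this length was 6, and the upstream Fgf13 start also held 2. The next Fgf13 start held 33, more than 96.0% of all windows, and the Alk window held 23. Both strands were searched for a T-box half-site (GGTGTG, present in 16.3% of all windows), an estrogen response half-site (GGTCA, 35.2%) and a forkhead site (TGTTTAC, 3.17%), none of which contains another. None of these letters occurred in the windows of Fgfr2, Alk, Vegfa or any of the 4 Fgf13 starts. Among the other members searched, the T-box letters occurred for Fgf11 and in 1 of the 4 Ddr1 windows, the estrogen half-site letters for Fgf6, Vegfd and Kdr, and the forkhead letters in no window. The search describes these windows only, and which start the array signal comes from is not known from these data.

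The vascular growth factor genes gave 1 measured ligand and almost no receptor signal. Vegfa, the main growth factor of blood vessel endothelium, had 8.35 in Venus High against 6.48 in Venus Low cells on its brightest probe set, a 3.66-fold difference, and 5.56 and 4.92 on the other, a log2 difference of 0.64 against 1.87. Both Vegfa probe sets had the only direction that the table can hold, and their sizes were unlike. Over the median of the Vegfa probe sets the difference is 1.25. Vegfd, a ligand of lymphatic vessels, had 4.14 in Venus High cells and the floor in Venus Low cells on its brightest of 3 probe sets. Of the endothelial receptor genes, Flt1 had 4.13 and Kdr 3.78 in Venus High cells with the floor in Venus Low cells, signals of 17.5 and 13.7, and Flt4, Tek and Tie1 were at the floor in both populations. Of 6 endothelial markers 2 were in the table. Cdh5, which encodes VE-cadherin, was at the floor in both populations, and Eng, which encodes the TGF-beta coreceptor endoglin, was higher in Venus High cells (7.13 and 4.83), so the summed linear signal of these markers was 150 and 38.5, and their part in the vascular values was not tested.

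Among the insulin family, Insr, the insulin receptor, had 7.56 in Venus High against 7.27 in Venus Low cells, a difference of 0.29. It becomes -0.37 after median centring and -0.38 with quantile normalization, which give no direction in a one-sided table. A second Insr probe set was at the floor in both populations. Igf2, a growth factor of fetal tissue, and Insrr, an orphan receptor of the family, were also at the floor.

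Ddr1, a collagen receptor of epithelial cells, was present in both populations at nearly the same signal, 10.92 in Venus High against 10.62 in Venus Low cells. Its 6 probe sets in the table differed by 0.14 to 0.35 on the log2 scale. A lower probe set cannot appear there, so the closeness of these sizes is no separate evidence. All 6 differences lie under the shift of median centring, after which the value is -0.36 (-0.40 after quantile normalization), and no direction can be given. Ddr2, the collagen receptor of mesenchymal cells, was at the floor in both populations on its 2 probe sets.

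The receptor gene Alk, best known from developing neurons, had 6.51 in Venus High against 3.56 in Venus Low cells on its 1 probe set, signals of 91.0 and 11.8. It lies just below the minimum of 100 and is counted as 4-fold higher with a minimum of 50. Its log2 difference of 2.95 shrinks to 1.51 with a floor of 32 and 0 with a floor of 100. Ret, Musk and Ros1 were at the floor in both populations.

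The genes known from stromal, vascular wall and neural cells were at the floor or close to it. Pdgfb had 4.14 in Venus High against 3.49 in Venus Low cells, a difference that vanishes with a floor of 32. Pdgfd, Pdgfrb and Hgf were at the floor in both populations, and so were Ntrk2 and Ntrk3 on all 7 probe sets each. The MET relative Mst1r, which is not counted among the genes of those cell types, was also at the floor in both populations. Of 7 fibroblast markers 6 were represented, with 0 at a signal of 100 or more, and their summed linear signal was 120 in Venus High against 82.5 in Venus Low cells. Col3a1, Lum and Thy1 were at the floor and Dcn had 6.01 and 4.89.

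**Figure D3:**
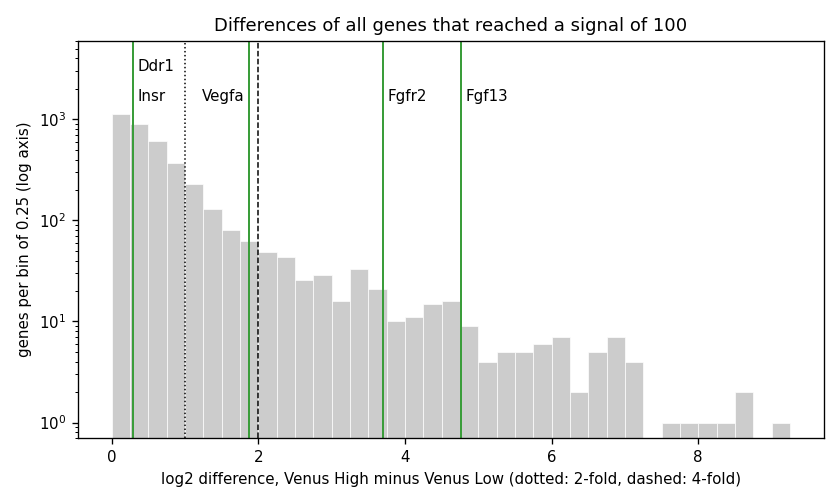
Number of genes (vertical log axis) by log2 difference between luminal Venus High and Venus Low cells (horizontal axis, bins of 0.25), for the 3847 genes that reached a signal of 100, with the 5 genes of the set as green lines. Ddr1 and Insr lie in the bulk below 2-fold, Vegfa between 2-fold and 4-fold, and Fgfr2 and Fgf13 beyond 4-fold, where the place of Fgf13 is set by the floor.

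Beside all genes, the members measured above a signal of 100 in both populations lay far apart. Ddr1 exceeded 33.7% and Insr 33.0% of the 3847 genes in their difference, against the 96.9% given for Fgfr2. Those 3847 genes reached a signal of 100 on either array, not on both. They include genes that passed only through Venus High cells and so had to differ, which makes the comparison unlike. No rank is given for Fgf13 and Vegfa, which passed the signal minimum only in Venus High cells and so had to differ, Fgf13 against a value at the floor. The median log2 difference of the 5 was 1.87, the value of Vegfa, and that of all 3847 genes was 0.46. It describes these 5 genes and not the set.

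Genes that work with the receptors were listed as partners in 11 groups, 121 genes in all, of which 71 were represented and 23 came to a signal of 100. Of the 71, 8 (11.3%) were up by 2-fold or more in Venus High cells and 4 (5.63%) by 4-fold or more, where the same rules took in 5.99% and 2.38% of all genes. The 4 were Gpc1, Ptn, Grb14 and Pik3r3. Of the 23 past the minimum these are the same 8 and 4, beside 21.6% and 8.58% of the genes that passed it. Gpc1, Grb14, Pik3r3 and Spry1, all among the 8, passed the minimum only through Venus High cells and so had to differ. The lists were also chosen with earlier results of these data known, and the counts are read as no result about the partners. The other 50 genes are not analysed here, so no list has a direction as a whole.

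Heparan sulfate proteoglycans bind FGF ligands at the cell surface, and Gpc1 and Sdc1 were the measured ones. Gpc1, a lipid-anchored glypican, had 8.41 in Venus High against 3.48 in Venus Low cells on its 1 probe set, a difference of 4.94 that is 1.77 with a floor of 100. Sdc1, a syndecan of epithelial cells, had 10.70 and 8.73, and its 4 probe sets differed by 1.66 to 2.20, all in the only direction that the table can hold. The coreceptor genes Kl and Klb, through which the hormone-like FGF ligands act, were at the floor in both populations.

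Ptn encodes pleiotrophin, a heparin-binding growth factor that has been described as a ligand of ALK. It had 13.13 in Venus High against 8.21 in Venus Low cells, a difference of 4.92 that no floor changes, while 6.42 and 0.56 separated the populations on its other probe sets, the last of them under a signal of 100 on both arrays. Mdk, the related midkine gene, had 5.12 and 4.96.

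In the insulin and PI3K branch, Grb14, an adaptor that inhibits the insulin receptor, had 8.76 and 5.87, a difference of 2.90 (2.12 with a floor of 100). Its second probe set was at the floor in both populations, so the 2 probe sets of Grb14 disagreed, and it leaves the 4-fold count over the median of probe sets. Pik3r3, a regulatory subunit of PI3K, had 6.77 and 4.44, a difference of 2.33 that falls to 0.13 with a floor of 100. Akt1 had 8.54 and 7.48 and Akt2 7.62 and 7.18. All 7 adaptor and RAS-ERK genes that reached a signal of 100 (Grb2, Nras, Araf, Braf, Map2k1, Map2k2 and Cbl) were under 2-fold, with log2 differences of 0.09 to 0.74. Of the 4 ERK feedback genes that did so, Dusp4 differed by 1.42, Spry1 by 1.37, Spred1 by 0.33 and Spred2 by 0.20. Spry1 was past that minimum only in Venus High cells, and its difference is 0.36 with a floor of 100.

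The remaining groups held few measured genes. Igf2r, the scavenging receptor of IGF2, had 9.02 and 8.09, and Sort1, a sorting receptor of neurotrophin precursors, had 9.12 and 8.17. The HGF activator inhibitors Spint1 and Spint2 differed by 0.26 and 0.02 on the log2 scale, and Src by 0.19. None of the RET ligands and coreceptors or of the neuropilin and angiopoietin genes represented, 5 in each group, lay above the floor on any probe set in the table. Nrp1 and Nrp2 were represented by 1 probe set each. A probe set lower in Venus High cells cannot appear, so these floor values do not show that the genes were silent.

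**Figure D4:**
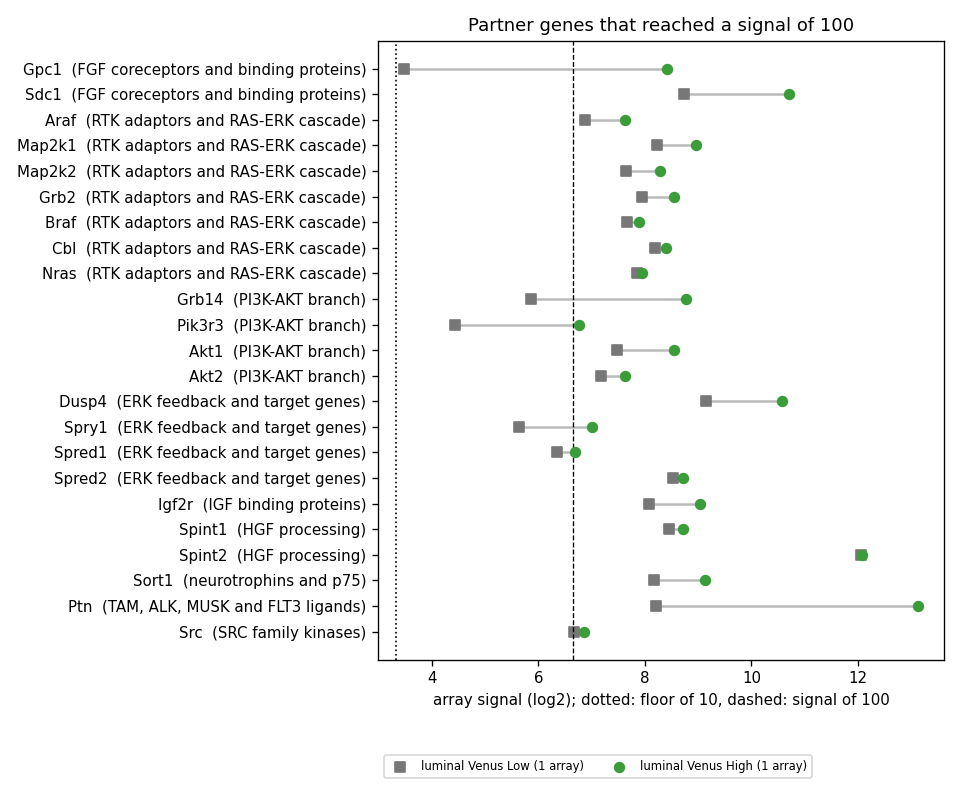
Array signal (log2, horizontal axis) of the 23 partner genes that reached a signal of 100, with their group in brackets, where green circles are luminal Venus High and grey squares luminal Venus Low cells, with 1 array each. Gpc1 and Ptn have gaps of 4.94 and 4.92, that of Gpc1 against a value near the floor, and the adaptor and RAS-ERK genes all lie under 2-fold.

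The floor and the scaling moved the members to different degrees, as plotted for 6 of them. Fgfr2 differed by 3.01 to 4.44 on the log2 scale under the 10 alternatives tried, and Vegfa by 1.19 to 1.87. The signal minimums among them leave the difference of a gene unchanged. Fgf13 ranged from 1.45 to 4.77, so the size of its difference depends on the floor, and Alk had no difference once the floor was at 100.

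**Figure D5:**
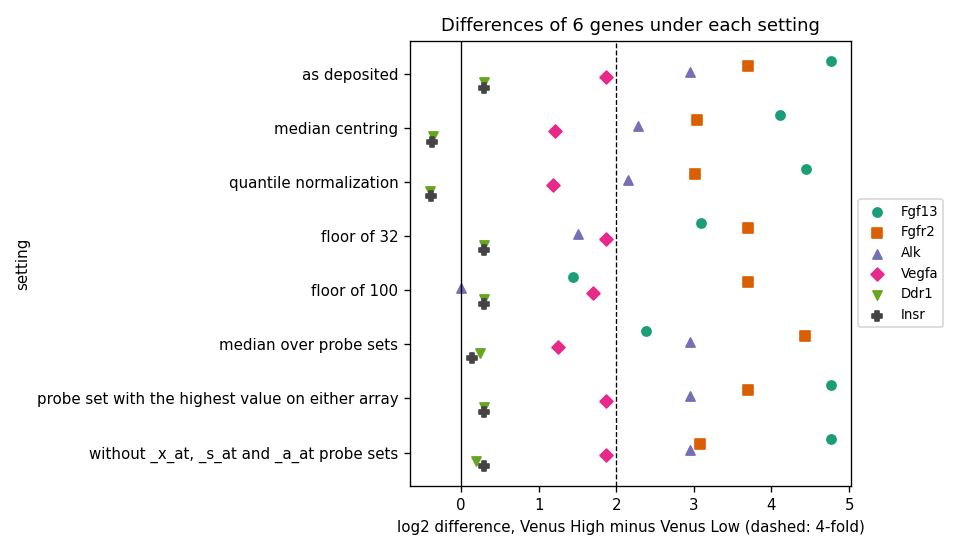
Log2 difference between luminal Venus High and Venus Low cells (horizontal axis) of 6 genes under each setting (vertical axis, 1 symbol per gene, points offset vertically). Fgfr2 stays to the right of the 4-fold line throughout, Fgf13 and Alk move left as the floor is raised, and Ddr1 and Insr cross 0 after median centring or quantile normalization.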

How the data were processed

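Signals of 2 arrays, 1 for luminal Venus High and 1 for luminal Venus Low cells, were analysed. Biotinylated cRNA from 250 ng of total RNA (RNA integrity number above 9.4) had been hybridized. The authors deposited log2 signals, which they had normalized and centred sample by sample with BRB Array software. MAS5 is also named in the submitters' processing notes. What the normalization was relative to is not given in those sources, and the lowest value, log2 of 10, was taken as a floor. Normalization to a common scale could shift every difference, and the floor sets the size of differences of dim genes.

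Gene names came from the annotation of the array platform: 22223 have 1 symbol, 602 several and 6513 are not listed. Of the first, 22060 matched a gene identifier in RefSeq (GRCm38.p6), which changed 0 symbols. Columns of other samples numbered 0. For each gene the brightest probe set by mean log2 value was kept, and the gene was counted as higher at a log2 difference of at least 2 (or 1) with a signal of at least 100. With 1 array per population no test was run. Every gene of the set above the floor was named, and partner genes at least 2-fold different, with others to fill out a count. The members and lists were chosen with earlier results of these data known. Alternatives were median centring, quantile normalization, floors of 32 and 100, other choices of probe set and signal minimums of 50, 200 or none. Python 3.11.15, numpy 2.4.6, pandas 2.3.3 and matplotlib 3.10.9 were used, and the computation was tested on simulated data.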

Additional observations from a re-analysis of the deposited data

How the results depend on the processing

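Fgfr2, Vegfa and Fgf13 stayed above 0 after median centring (3.04, 1.21 and 4.11) and quantile normalization (3.01, 1.19 and 4.44). Their differences as deposited exceeded the 0.66 that median centring takes off. Under that scaling the outcome was therefore fixed in advance, and it is no check of direction. Alk, Fgf1, Fgf11, Vegfd and Flt1 also stayed above 0 under both scalings. The other alternatives could not turn a difference negative, and the signal minimums leave the difference of a gene unchanged. Differences turned negative after median centring and quantile normalization for Ddr1 (-0.36 and -0.40), Insr (-0.37 and -0.38), Fgf6 (-0.34 and -0.47) and Pdgfb (-0.0085 and -0.19), whose differences as deposited were smaller than the 0.66 that median centring takes off. Both scalings were run on the one-sided table, so such changes of sign for small differences were built in and show no direction. The count of 2 genes at least 4-fold higher was 1 with a floor of 100 and over the median of probe sets (Fgfr2 alone) and 1 once the _x_at, _s_at and _a_at probe sets were left out (Fgf13 alone). It was 3 with a signal minimum of 50 or none, where Alk joins. The count of 5 genes that reached a signal of 100 was 3 over the median of probe sets and is 48 with no minimum by construction. The count of 3 genes at least 2-fold higher was 6 with no minimum, 4 with a minimum of 50 (Alk joins), 2 over the median of probe sets (without Fgf13) and 2 without the _x_at, _s_at and _a_at probe sets (without Fgfr2). The median of 1.87 was 1.21 after median centring, 1.19 after quantile normalization, 1.45 with a floor of 100, 1.25 over the median of probe sets, 1.08 without the probe sets named above, 2.41 and 2.78 with minimums of 50 and 200, and 0 with none. The 4 partner genes at least 4-fold higher were 2 with a floor of 100, Grb14 and Ptn. They were 3, without Pik3r3, after median centring, quantile normalization, a floor of 32 or a minimum of 200, 3, without Grb14, over the median of probe sets, and 5 with no minimum, where Etv4 joins. The median of all genes that reached a signal of 100 was -0.24 after median centring and -0.26 after quantile normalization, against 0.46. No paired analysis was possible because each population has 1 array.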
